A study of Mus musculus with 3 samples.

Results

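The 10 genes described here, of 55357 counted, receive or carry the signals of interleukin 1 and of the interleukin 6 family, hold them back, or answer them: Il1r1, Il1rap, Il1rn, Il6ra, Il6st, Osmr, Lifr, Stat3, Socs3 and Steap4. They were picked by symbol, with earlier results of the same counts known, among them that Il1r1 and Steap4 were leading genes of a hepatocyte cluster of the control library. Their levels in hepatocytes are therefore a description, and no test is given. The data were single-cell 3' RNA counts from the livers of wild-type male C57BL/6 mice that entered the experiment at 8 weeks of age, in 3 groups. The control group was untreated. The HFD group ate a high-fat diet with 60% of its calories from fat for 4 months, a model of metabolic steatohepatitis, and the CCl4 group ate chow for 3 months and was then injected intraperitoneally with 0.1 mL of a 10% solution of carbon tetrachloride 2 times per week for 4 weeks, a model of fibrosis. Collagenase-released hepatocytes and nonparenchymal cells were mixed 1:1, and the cells of 2 mice per group were pooled into 1 library, so that mouse-to-mouse spread within a group cannot be seen and n is 1 per group.

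Interleukin 1 binds the receptor encoded by Il1r1, which signals once it has recruited the accessory chain encoded by Il1rap, and the secreted antagonist encoded by Il1rn occupies the same receptor without signalling. Interleukin 6 binds the chain encoded by Il6ra and then the shared signalling chain gp130, encoded by Il6st. Oncostatin M and leukemia inhibitory factor use gp130 with the partner chains encoded by Osmr and Lifr. In hepatocytes both arms are known for the acute-phase response: interleukin 1 acts mainly through NF-kappaB, and gp130 acts through the transcription factor Stat3, which is restrained by its own target Socs3. Steap4, a metalloreductase of the plasma membrane and endosomes, is known as a gene induced by inflammatory cytokines.

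The promoter windows of Steap4 and Socs3 are printed because, among the members, theirs were the ones holding a STAT motif. Each window runs from 250 bases before to 50 bases after the start of the gene, 5' to 3' on the gene's own strand, taken from RefSeq on build GRCm38.p6. The capitals mark the motif TTCNNNGAA, which reads the same on both strands in this form. Steap4 lies at chr5:7960222-7960521 on the plus strand, with the motif 116 bases before the start, and Socs3 at chr11:117969317-117969616 on the minus strand, with the motif 154 bases before the start. The start is that of RefSeq, and the span of Socs3 in GENCODE, given below with its values, begins farther upstream, so that the window lies inside it.
Steap4: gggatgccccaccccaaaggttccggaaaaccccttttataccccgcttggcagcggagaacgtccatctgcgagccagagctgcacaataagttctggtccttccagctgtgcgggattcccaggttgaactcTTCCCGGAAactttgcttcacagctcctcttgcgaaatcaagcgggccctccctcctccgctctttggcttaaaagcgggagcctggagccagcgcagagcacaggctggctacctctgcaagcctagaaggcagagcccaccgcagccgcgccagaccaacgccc
Socs3: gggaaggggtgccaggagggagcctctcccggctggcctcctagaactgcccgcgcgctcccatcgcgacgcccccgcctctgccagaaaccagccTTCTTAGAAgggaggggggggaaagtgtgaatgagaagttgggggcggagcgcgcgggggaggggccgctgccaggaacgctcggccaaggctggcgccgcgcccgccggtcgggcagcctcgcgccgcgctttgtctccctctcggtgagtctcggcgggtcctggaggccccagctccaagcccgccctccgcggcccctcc
The same motif occurred in 8.3% of all 32851 promoter windows, and in 2 of the 14 windows of the 10 members. The Steap4 copy also met the stricter form TTCCNGGAA, present in 1.15% of windows. The NF-kappaB motif was found in 8.46% of all windows, in 1 window of Il1r1 and at 2 places in that of Steap4. A match describes letters only, and factor binding was not measured.

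The libraries held 11245 control, 12984 HFD and 12761 CCl4 barcodes, with 49613255, 34985786 and 34061186 unique molecules (UMIs). Between 36 and 52 barcode sequences were shared by any pair of libraries. After filtering, 36945 cells were kept, and 4933 control, 6385 HFD and 7048 CCl4 cells were called hepatocyte-like from 12 markers, all of which were detected in each library. Most of these had under 3% mitochondrial UMIs and little Malat1, a nuclear RNA that intact cells retain: Malat1 was 8.32-fold, 7.38-fold and 3.94-fold higher in the control, HFD and CCl4 hepatocyte-like cells with 3 to 30% mitochondrial UMIs than in those below 3%. The members were therefore read in the cells with 3 to 30%, which numbered 1352, 880 and 2382 and had median depths of 8695.5, 3651.5 and 3159.5 UMIs. Levels are given as UMIs of a gene per 1000000 UMIs (CPM), summed over the cells of a class, with 95% exact intervals in parentheses. The intervals cover counting error only. Control hepatocyte-like cells lay mostly in 2 clusters, of 3421 and 1506 control cells. In each, 2 of the 12 markers were raised, at 1.5-fold over all other cells of the 3 libraries in at least 10% of cells. None of the 12 was among the 10 leading genes of either cluster. Their class rests on the summed markers, at 79650 and 68950 CPM against 21285 and 21271 CPM in the median cluster.

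Free RNA was abundant in each library and differed between them, which bears on every comparison below. The 12 hepatocyte markers summed to 32729, 93024 and 119611 CPM in B cell-like cells of the control, HFD and CCl4 libraries, a class that should lack them. Serum amyloid Saa1, a hepatocyte acute-phase product, was at 11283, 516 and 167 CPM in the 3 to 30% hepatocyte-like cells and at 9657, 594 and 184 CPM in the B cell-like cells. The control library, from untreated mice, was thus the one with abundant Saa1. With 1 library per group, the treatment and the library cannot be told apart. B cell-like levels are given below as background for Il1r1, Il1rn, Osmr, Lifr and Steap4, and no class was taken to lack the other members. In hepatocyte-like cells under 3% mitochondrial UMIs Saa1 was at 22711, 698 and 212 CPM, so B cell-like cells fell farthest below these cells in control. Folds over B cell-like cells are not corrected for this, and their order between libraries was not tested.

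Il1r1 (chr1:40225080-40317257, plus strand, GRCm38) encodes the signalling receptor for interleukin 1. In the 3 to 30% hepatocyte-like cells it was at 321 CPM (311-331) in control, 19.8 (15.4-25.1) in HFD and 15.1 (12.6-17.9) in CCl4. The control library was the high one, and the intervals of the other two overlapped. Il1r1 was 16.2-fold (12.8-20.9) lower in HFD and 21.3-fold (17.9-25.5) lower in CCl4 than in control, while the CCl4 to HFD ratio was 0.761 (0.564-1.03). At least 1 Il1r1 UMI was found in 82.0% of control, 7.61% of HFD and 5.46% of CCl4 cells. Thinned to 1000 UMIs per cell, the shares were 27.5%, 2.04% and 1.73%, in the same order. In B cell-like cells, with median depths of 1946, 2128 and 1936.5 UMIs, the unthinned shares were 11.4%, 1.13% and 0.935% and the levels 51.7, 4.84 and 4.41 CPM. The background thus also differed between libraries, by 10.7-fold in HFD and 11.7-fold in CCl4. Above that background, hepatocyte-like cells held 6.21-fold (5.22-7.44) more Il1r1 in control, 4.09-fold (2.03-9.33) more in HFD and 3.42-fold (1.80-7.30) more in CCl4.

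An unconfirmed transcript, Gm38070, lies inside Il1r1 on the same strand (chr1:40238020-40244499) and overlaps none of its exons. It was at 122 CPM in control, 7.86 in HFD and 8.32 in CCl4 in the same cells, highest in control as Il1r1 was. Gm38070 was 23.5-fold, 9.84-fold and 7.44-fold higher in the 3 to 30% cells than in those under 3%. Whether these counts came from unspliced Il1r1 RNA was not tested, and how reads in introns were counted is not given in the sources used here.

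Il1rn (chr2:24336853-24351494, plus strand) encodes the interleukin 1 receptor antagonist, whose secreted and intracellular forms 3' counts do not separate. Its level in the 3 to 30% hepatocyte-like cells was 159 CPM (152-166) in control, 2.62 (1.20-4.98) in HFD and 5.62 (4.17-7.42) in CCl4. Only the control library stood above 10 CPM. The difference from control was 60.8-fold (31.9-133) in HFD, which rested on 9 UMIs, and 28.3-fold (21.4-38.3) in CCl4, which rested on 50. B cell-like cells held 56.0, 1.08 and 4.85 CPM, so hepatocyte-like cells exceeded background 2.84-fold (2.40-3.39) in control, with no excess beyond counting error in HFD (2.44-fold, 0.504-23.2) or CCl4 (1.16-fold, 0.596-2.47). An excess of Il1rn over B cell-like cells was thus measured in the 3 to 30% cells of control, and was not detectable at this depth in those of the other libraries. Hepatocyte-like cells under 3% exceeded B cell-like cells 2.04-fold (1.72-2.44) in control, 4.59-fold (1.22-38.7) in HFD and 1.35-fold (0.713-2.82) in CCl4. The HFD value rested on 2 B cell-like UMIs. How much of these counts was free RNA was not tested.

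Il1rap (chr16:26581704-26730117, plus strand) encodes the accessory chain that Il1r1 needs to signal, and it did not share the pattern of Il1r1. It was at 79.0 CPM (74.1-84.1) in control, 62.9 (54.8-71.9) in HFD and 103 (96.1-110) in CCl4. CCl4 was the highest library and HFD the lowest, and their intervals did not overlap. The ratios to control were 0.796 (0.684-0.924) in HFD and 1.30 (1.19-1.42) in CCl4, and neither reached 2-fold. B cell-like cells held 24.3, 30.7 and 49.3 CPM of Il1rap, also highest in CCl4. The hepatocyte-like level was 3.25-fold, 2.05-fold and 2.08-fold above that, the farthest in control. The share of cells with both Il1r1 and Il1rap UMIs was 40.2% in control, 1.93% in HFD and 1.51% in CCl4, against 36.5%, 1.57% and 1.68% from the product of the separate shares. These shares were not thinned to equal depth, and control cells were the deepest, at a median of 8695.5 UMIs against 3651.5 and 3159.5. An antisense gene, Gm20319, overlaps Il1rap on the opposite strand.

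**Figure D1:**
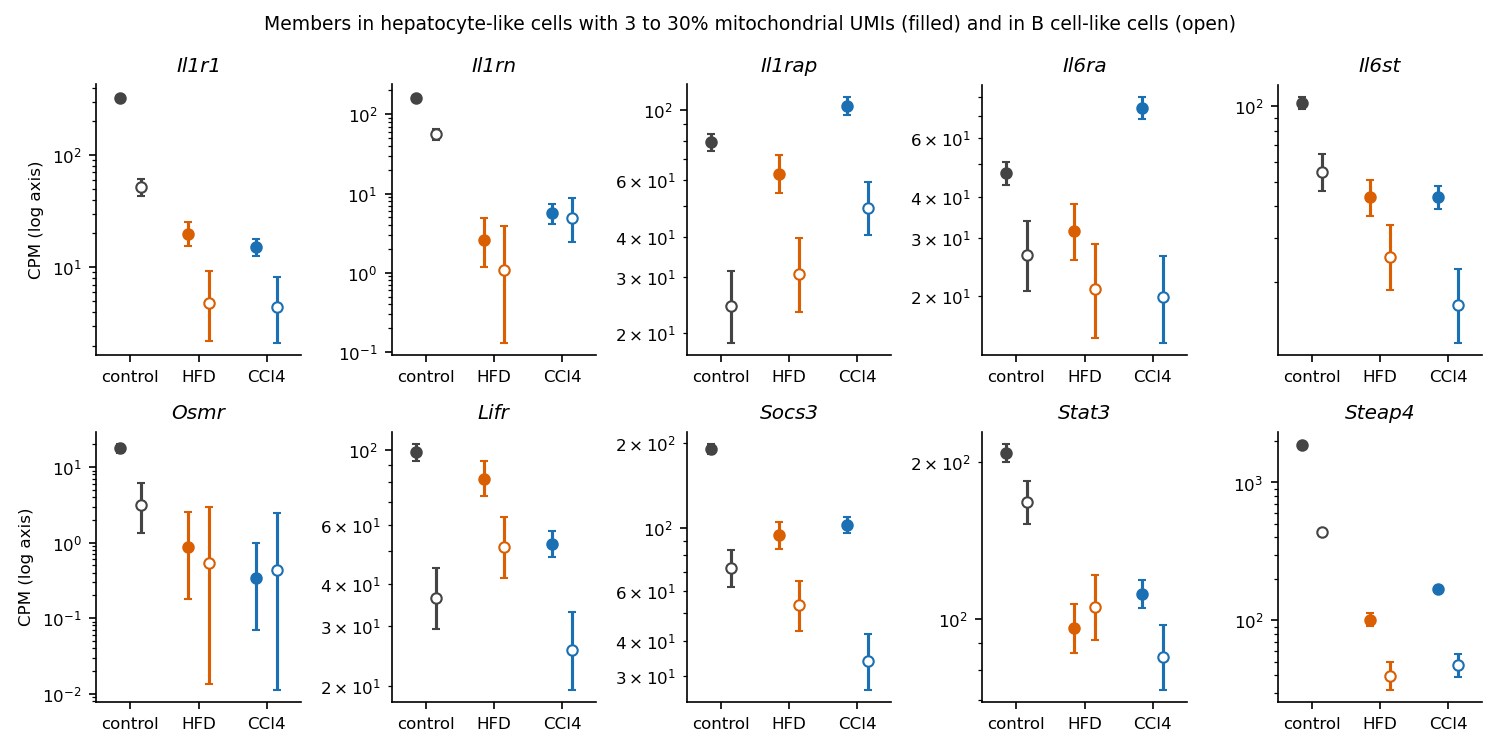
CPM of each of the 10 members (log axis) in the control, HFD and CCl4 libraries, in hepatocyte-like cells with 3 to 30% mitochondrial UMIs (filled points) and in B cell-like cells (open points), with exact 95% counting intervals. Il1r1, Il1rn and Steap4 stand high in control in both cell sets, while Il1rap and Il6ra are highest in CCl4 hepatocyte-like cells.

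Il6ra (chr3:89864059-89913196, minus strand) encodes the ligand-binding chain for interleukin 6. It was at 47.0 CPM (43.2-51.0) in control, 31.5 (25.8-38.0) in HFD and 74.1 (68.6-80.0) in CCl4, so the order was CCl4, control, HFD, with no overlap between neighbours. Against control the ratios were 0.669 (0.540-0.823) in HFD and 1.58 (1.41-1.77) in CCl4. Il6ra was the only member at least 2-fold higher in CCl4 than in HFD, at 2.36-fold (1.92-2.92), among 8 tested, and 2.65% of 7099 genes were that much higher in the same comparison. None was 2-fold lower, against 4.62% of genes, and Il1rn (2.15) and Osmr (0.386), under 10 CPM in both libraries, were not counted. The 3' counts do not tell the membrane form from a soluble one, and the antisense gene Gm42809 overlaps Il6ra.

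Il6st (chr13:112464070-112510086, plus strand) encodes gp130, the chain through which all the interleukin 6 family receptors here signal. The levels were 103 CPM (97.6-109) in control, 43.4 (36.7-51.0) in HFD and 43.4 (39.2-48.0) in CCl4. Both treated libraries were lower than control, by 2.38-fold (2.00-2.84) in HFD and 2.38-fold (2.12-2.67) in CCl4. In B cell-like cells, which were not taken to lack Il6st, it was at 54.9, 25.3 and 16.3 CPM, and the hepatocyte-like level was 1.88-fold, 1.72-fold and 2.66-fold above that. Cells with both Il6ra and Il6st UMIs made up 22.2% of control, 1.36% of HFD and 4.24% of CCl4 cells, with 18.3%, 1.72% and 3.5% from the product of the shares. The pair shares were again not thinned to equal depth, so they cannot be compared between libraries as levels can.

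Osmr (chr15:6813577-6874969, minus strand), the oncostatin M receptor chain, was the lowest in counts: 218 UMIs in control and 3 in each of the other libraries, equal to 17.7 CPM (15.4-20.2), 0.874 (0.180-2.55) and 0.337 (0.0696-0.986). The ratio to control was 0.0495 (0.0101-0.146) in HFD and 0.0191 (0.00391-0.0566) in CCl4. Osmr was seen in 14.0% of control cells and could not be told from the B cell-like background in HFD (1.62-fold, 0.130-85.3) and CCl4 (0.766-fold, 0.0615-40.2). Lifr (chr15:7090614-7197489, plus strand), the chain for leukemia inhibitory factor, moved little by comparison, at 98.3 CPM (92.8-104), 82.1 (72.8-92.3) and 52.6 (48.0-57.6). Control was highest and CCl4 lowest. The ratios to control were 0.836 (0.732-0.952) in HFD and 0.536 (0.480-0.596) in CCl4. In B cell-like cells Lifr was at 36.4, 51.6 and 25.6 CPM, and hepatocyte-like cells exceeded this 2.70-fold, 1.59-fold and 2.06-fold.

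Stat3 (chr11:100885098-100939540, minus strand), the transcription factor downstream of gp130, was at 208 CPM (200-217) in control, 96.1 (86.0-107) in HFD and 112 (105-119) in CCl4. It was 2.17-fold (1.93-2.44) lower in HFD and 1.86-fold (1.73-2.01) lower in CCl4. Stat3 was not higher in hepatocyte-like cells than elsewhere: the ratio of its level to that in all other cells was 0.903, 0.645 and 0.943 in control, HFD and CCl4. Stat5a overlaps it on the opposite strand.

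Socs3 (chr11:117966079-117970047, minus strand), the feedback inhibitor of gp130 signalling, was at 190 CPM (182-198) in control, 94.4 (84.4-105) in HFD and 102 (95.8-109) in CCl4. Control was again highest, and the other libraries overlapped. The difference was 2.01-fold (1.79-2.27) in HFD, just inside the 2-fold limit, and 1.85-fold (1.72-2.00) in CCl4, just outside it, so the sides of the limit say little here.

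Steap4 (chr5:7960457-7982213, plus strand), whose promoter window is printed above, was at 1874 CPM (1850-1898) in control, 101 (90.7-112) in HFD and 170 (162-179) in CCl4. The control library stood far above the others, and CCl4 stood above HFD. The difference from control was 18.5-fold (16.7-20.7) in HFD and 11.0-fold (10.5-11.6) in CCl4, and CCl4 was 1.68-fold (1.5-1.9) above HFD. The median cell held 15 Steap4 UMIs in control and 0 in the others. The cell at the 90th percentile held 32, 1 and 2, and the highest cell 156, 5 and 10. Of the control cells 98.8% had a Steap4 UMI, against 29.9% in HFD and 43.3% in CCl4, and after thinning to 1000 UMIs the shares were 82.2%, 9.48% and 15.7%. B cell-like cells held 434, 39.8 and 47.6 CPM, a background that was 10.9-fold lower in HFD and 9.12-fold lower in CCl4. Hepatocyte-like cells exceeded it 4.32-fold (4.07-4.59), 2.54-fold (1.97-3.31) and 3.58-fold (2.94-4.39).

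Counting the members together, 7 of 10 were at least 2-fold lower in HFD than in control (Il1r1, Il1rn, Il6st, Osmr, Stat3, Socs3 and Steap4) and none higher, where 5.38% of 7120 genes were that much lower and 7.82% higher. In CCl4 against control, 5 of 10 were lower (the same without Stat3 and Socs3) and none higher, where 6.82% of 7038 genes were lower and 7.42% higher. These contrasts include the control levels with which the members were chosen, so nothing is read from the counts against the background. The median log2 ratio of the members was -1.18 in HFD and -1.07 in CCl4, and that of all genes tested 0.13 and 0.06. Both comparisons use the same control library. Just outside the limit in CCl4 were Lifr at 1.87-fold, Stat3 at 1.86-fold and Socs3 at 1.85-fold lower. Among all hepatocyte-like cells, with no mitochondrial limit, 6 of 9 members tested were lower in HFD (background 6.36%) and 4 of 9 in CCl4 (6.76%), with none higher (5.72% and 7.5%). Between CCl4 and HFD in all hepatocyte-like cells, Il6ra was 3.23-fold and Steap4 2.39-fold higher, where 4.35% of genes were, and none was lower, where 4.33% of genes were.

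**Figure D2:**
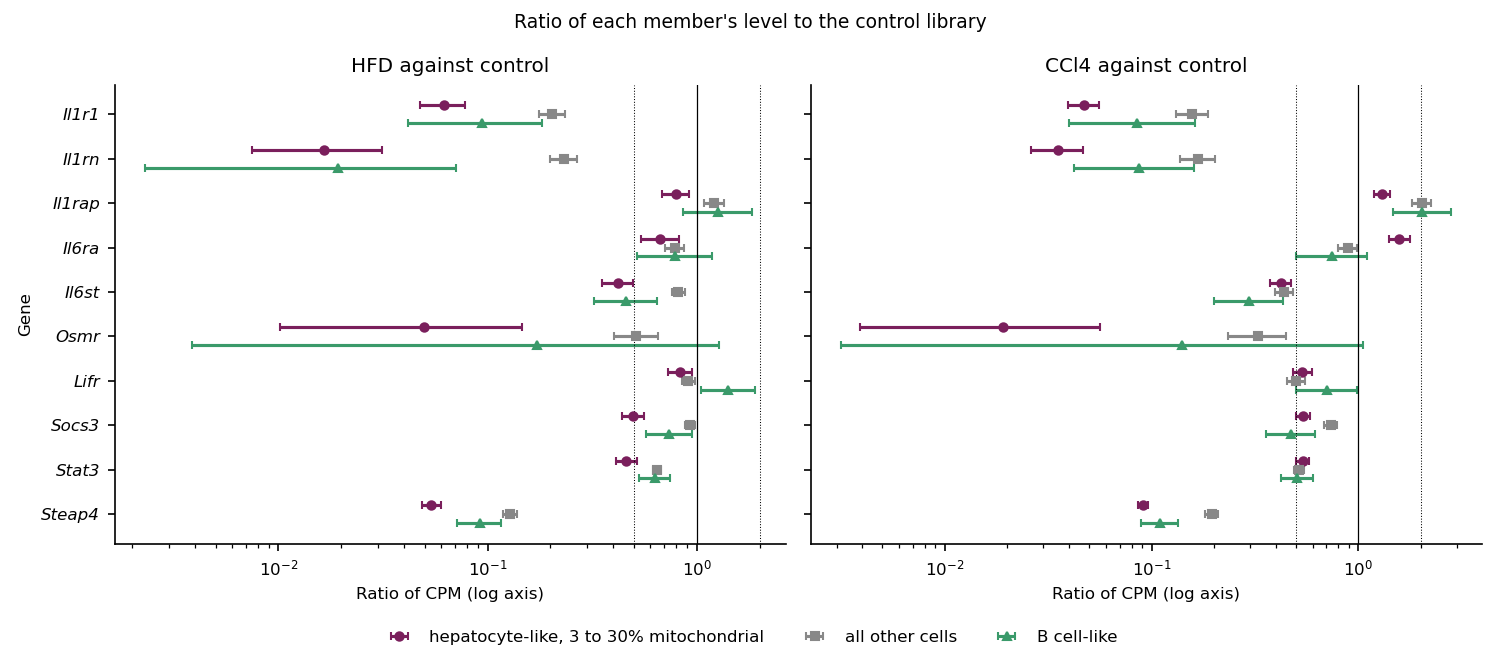
CPM ratio of HFD (left) and CCl4 (right) over control for each member on a log axis, in hepatocyte-like cells with 3 to 30% mitochondrial UMIs, in all other cells and in B cell-like cells, with 95% counting intervals and dotted lines at 0.5 and 2. Il1r1, Il1rn and Steap4 lie below 0.5 in all 3 cell sets, and Il1rap lies above 1 in all 3 in CCl4.

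The differences were not limited to hepatocyte-like cells. In the sum of all other cells Il1r1 was at 64.6, 13.2 and 10.1 CPM in control, HFD and CCl4, and Steap4 at 333, 42.8 and 64.9 CPM. Both followed the order of the B cell-like background. Il1rap in all other cells was at 28.7, 34.9 and 58.2 CPM, highest in CCl4 as in hepatocyte-like cells, and its ratio of CCl4 to control was 2.03 (1.82-2.25). Free RNA, the classes present and a change within cells were not separated in these sums.

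**Figure D3:**
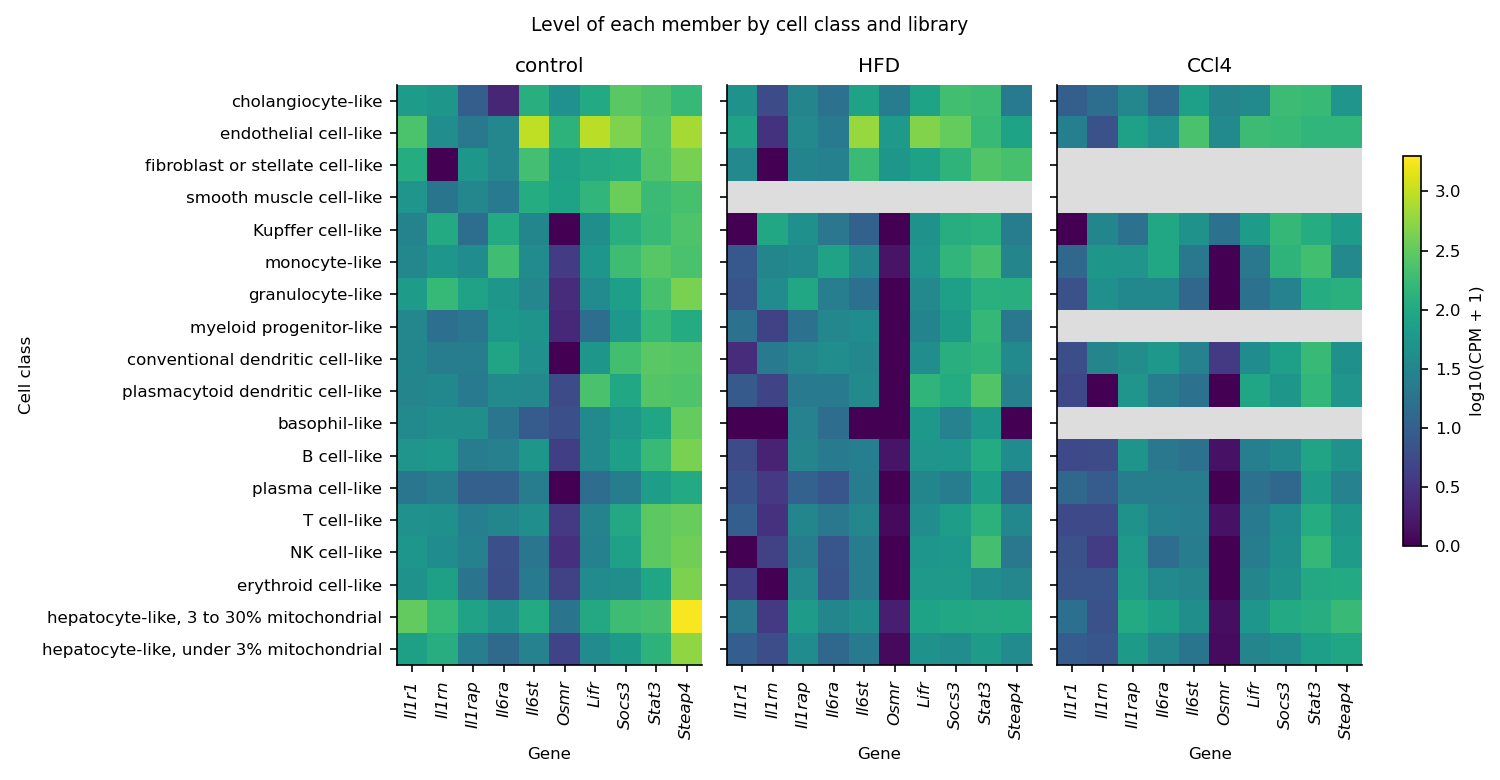
Heat map of log10(CPM + 1) for the 10 members (columns) in each marker-defined cell class (rows) of the control, HFD and CCl4 libraries. Grey marks classes with under 20 cells. Among named classes, Il6st, Lifr and Osmr are highest in endothelial cell-like cells in each library, Il6ra in monocyte-like or Kupffer cell-like cells, and Steap4 in the 3 to 30% hepatocyte-like cells of control and CCl4.

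The members were highest in different cell classes. The orders below are among named classes, and cells without a class name are given where they stood higher. Steap4 was highest in the 3 to 30% hepatocyte-like cells among the 18 cell sets listed in control and the 14 in CCl4, where endothelial cell-like cells followed at 148 CPM with an overlapping interval. In HFD fibroblast or stellate cell-like cells were highest for Steap4, at 215 CPM (174-264). Il1r1 led in hepatocyte-like cells in control, with endothelial cell-like cells next at 229 CPM (199-263). In HFD and CCl4 the endothelial cell-like cells were first for Il1r1, at 77.7 CPM (61.1-97.3) and 26.0 (14.2-43.5), and the intervals overlapped those of the next class. Cells without a class name held 327 CPM of Il1r1 in control, 29.5 in HFD and 31.3 in CCl4, above the first named class in control and CCl4 but with overlapping intervals.

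The gp130 chains were most abundant in endothelial cell-like cells, of which there were 174 in control, 327 in HFD and 162 in CCl4. Il6st there was at 963, 619 and 226 CPM, and in each library no other class had an interval that reached it. Lifr was at 910, 470 and 182 CPM, with plasmacytoid dendritic cell-like cells second of the named classes in each library at 224, 142 and 88.0 CPM. Osmr was at 135, 58.0 and 37.1 CPM and overlapped the next class each time. All 3 genes were highest in control and lowest in CCl4. The 10 endothelial markers themselves summed to 8216, 6432 and 2575 CPM in these cells, and the hepatocyte markers to 22676, 67383 and 110700 CPM, in the order opposite to the receptors. Their part in the result was not tested.

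Il6ra in monocyte-like cells was at 192 CPM (167-220) in control, 79.5 (70.9-88.8) in HFD and 91.8 (69.4-119) in CCl4, first in control and HFD. In CCl4 the 22 Kupffer cell-like cells stood at 94.7 CPM on 6 UMIs, which overlapped monocyte-like and hepatocyte-like cells. Il1rn was first in granulocyte-like cells in control at 163 CPM (145-183), overlapping the hepatocyte-like cells, and first in Kupffer cell-like cells in HFD at 92.4 (55.6-144). In CCl4 it was first in monocyte-like cells, at 54.1 CPM (37.2-76.0), overlapping the granulocyte-like cells. Among the named classes Socs3 was highest in endothelial cell-like cells in control (461 CPM) and HFD (333 CPM). In CCl4 it was highest in cholangiocyte-like cells (184 CPM). The interval overlapped that of smooth muscle cell-like cells in control and that of endothelial cell-like cells in CCl4. Cells without a class name held 253, 351 and 269 CPM of Socs3. They stood higher in CCl4, and in HFD with an interval that overlapped that of the endothelial cell-like cells. Stat3 differed least between classes, and its first 4 classes overlapped with their neighbours in each library.

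Compared with all other cells, 4 members were at least 2-fold higher in the 3 to 30% hepatocyte-like cells of the control library, where 12.5% of genes were: Il1r1 (4.97-fold), Il1rn (3.05-fold), Il1rap (2.75-fold) and Steap4 (5.62-fold). In HFD and CCl4 Steap4 alone was, at 2.36-fold and 2.62-fold, with 7.73% and 4.47% of genes. In CCl4 Il6ra stood just under the limit, at 1.97-fold (1.75-2.21), and Il1rap was at 1.76-fold (1.60-1.94). All other cells included those without a class name, 679 in CCl4, which held 88.4 CPM of Il6ra and 113 of Il1rap. Ratios without these cells were not taken, so which members pass in CCl4 depends on where they are counted. Among the members tested, 0 in control (44.3% of genes) were at least 2-fold lower than in all other cells. In HFD Il1rn alone was, at 0.217 (24.3% of genes), and in CCl4 0 were (17.8% of genes). Osmr, under 10 CPM on both sides, was not counted, at 0.157 (0.0318-0.472) in HFD and 0.0951 (0.0189-0.295) in CCl4. Il1rn in CCl4 was not counted either, at 0.644. Over all hepatocyte-like cells the counts were 3 members in control (Il1r1, Il1rn and Steap4, against 12.1% of genes) and 0 in HFD (0.382%) and CCl4 (0.62%). Lower by 2-fold were 0 in control (46.1%) and 5 of 9 tested in HFD (28.1%), namely Il1rn, Il6ra, Il6st, Socs3 and Stat3, and 0 in CCl4 (19.3%). Osmr was again not counted, at 0.0626 in HFD and 0.0824 in CCl4. The members were chosen with Il1r1 and Steap4 known as leading genes of a control hepatocyte cluster. Nothing is therefore read from the control counts against the background.

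**Figure D4:**
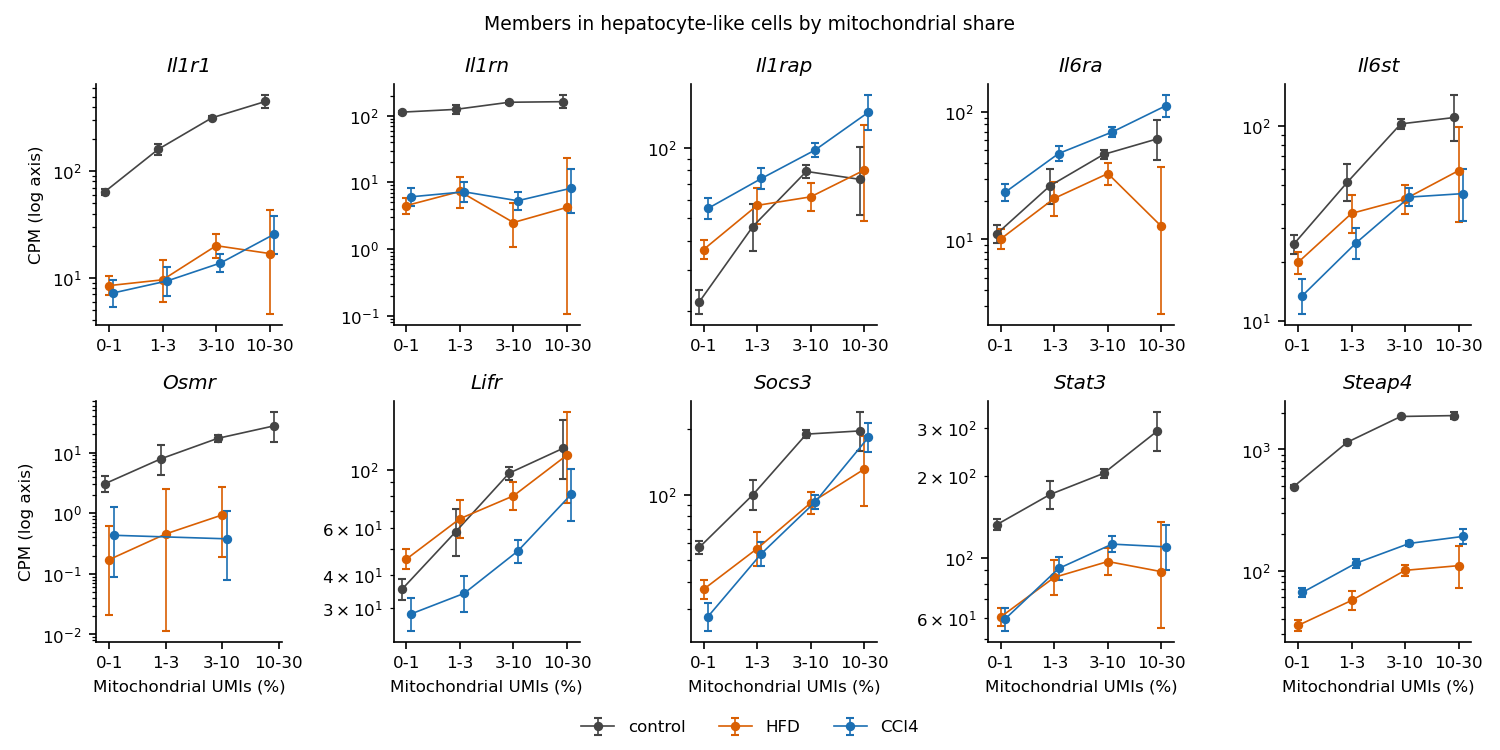
CPM of members (log axis) in hepatocyte-like cells grouped by the mitochondrial share of their UMIs, in percent, for the control, HFD and CCl4 libraries, with 95% counting intervals. Most members are higher in cells with more mitochondrial UMIs, Il1rn differs least of the members in control, at 1.39-fold between cells above and below 3%, and the control library stays above the others for Il1r1 and Steap4 in each group of cells.

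The mitochondrial limit separated cells that differed in most members. In control, Steap4 was at 494 CPM in cells with 0 to 1% mitochondrial UMIs, 1148 at 1 to 3%, 1872 at 3 to 10% and 1905 at 10 to 30%. Il1r1 in control was at 64.2, 161, 316 and 450 CPM in the same order. Steap4 was thus about as high at 3 to 10% as at 10 to 30%, and lower below 3%. Il1r1 was still higher at 10 to 30% (393-512) than at 3 to 10% (306-326). In control every member was higher in the 3 to 30% cells than in those under 3%, from 1.39-fold for Il1rn to 4.89-fold for Osmr. Il1rn was the exception in the other libraries, at 0.531 (0.233-1.07) in HFD and 0.860 (0.590-1.25) in CCl4. For comparison, Alb was 3.47-fold, 1.79-fold and 1.40-fold higher in the 3 to 30% cells.

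**Figure D5:**
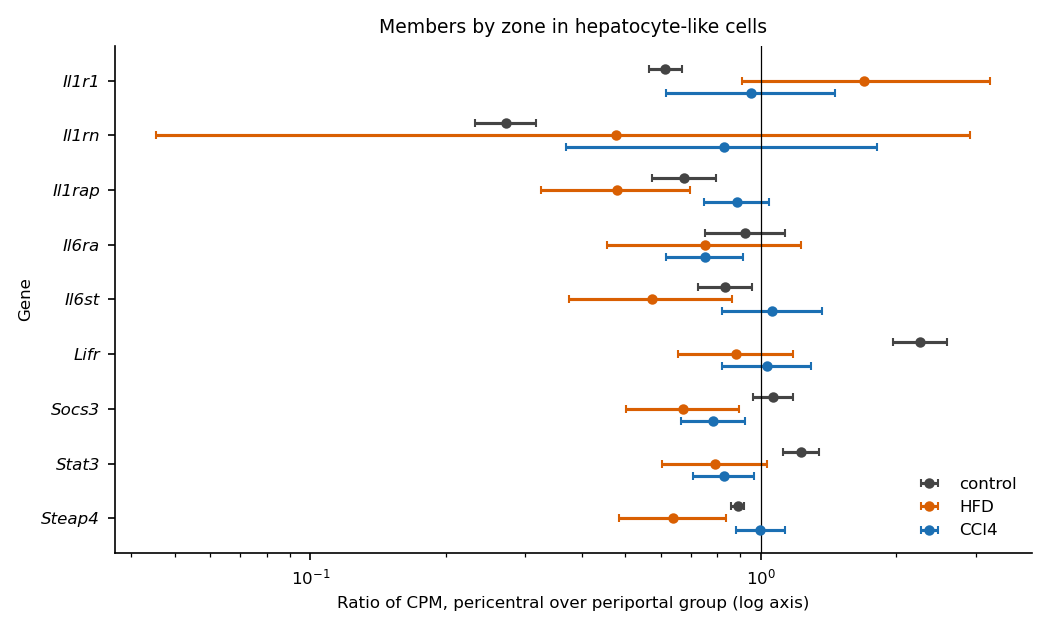
Ratio of CPM in the most pericentral over the most periportal group of the 3 to 30% hepatocyte-like cells for 9 members, on a log axis with 95% counting intervals, for the control, HFD and CCl4 libraries. Osmr is left out for its few UMIs. In control Lifr lies well above 1 and Il1rn well below it, while in CCl4 all 9 lie between 0.750 and 1.06.

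Position along the liver lobule was read from pericentral genes such as Glul and Oat and periportal genes such as Cyp2f2 and Hal, by which the 3 to 30% hepatocyte-like cells were ranked and split into 3 equal groups per library, the outer ones of 450, 293 and 794 cells. None of the members is in those lists. In control Il1rn was at 55.4 CPM in the pericentral group and 203 in the periportal, 3.67-fold higher near the portal side. Il1r1 was at 219 and 357 CPM, 1.63-fold higher in the periportal group. Lifr ran the other way in control, at 153 pericentral and 67.7 periportal, a ratio of 2.25 (1.97-2.58), and in HFD and CCl4 the ratio was 0.881 (0.656-1.18) and 1.03 (0.820-1.29). Steap4 in control differed little, at 1700 and 1914 CPM. Il1rap in HFD was 2.08-fold higher in the periportal group, at 77.9 against 37.4 CPM. The control groups also differed in depth, with medians of 7634 and 11274.5 UMIs. In CCl4 the groups were less distinct in periportal genes: Cyp2f2 was 26.1-fold higher in the periportal group in control, 23.7-fold in HFD and 1.51-fold in CCl4. Pericentral genes still separated the CCl4 groups. Glul was 15.6-fold and Oat 32.2-fold higher in the pericentral group there, against 12.6-fold and 78.8-fold in control.

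Other genes of the same pathway were read from 5 lists of 60 genes. Of 21 acute-phase and early targets, 20 passed the limit of 10 CPM in the 3 to 30% hepatocyte-like cells, and 17 were at least 2-fold lower in each of HFD and CCl4 than in control, with none higher. Of all genes tested, 5.38% were that much lower and 7.82% higher in HFD, and 6.82% and 7.42% in CCl4. The 5 lists were chosen with earlier results of these data known, so nothing is read from their counts against these shares. Saa2 was at 11621 CPM in control, 270 in HFD and 68.6 in CCl4, and Lcn2, the siderophore-binding lipocalin 2, at 2950, 31.7 and 37.5 CPM. Saa3 was at 412, 9.32 and 10.2 CPM, and Orm2 at 756, 73.7 and 19.1 CPM. The targets that stayed within 2-fold were Hamp (hepcidin), Junb and Nfkbiz. In the 3 to 30% cells Hamp was at 3143 CPM in control, 2657 in HFD and 5181 in CCl4, highest in CCl4 as Il1rap and Il6ra were. In hepatocyte-like cells under 3% it was at 11286, 5149 and 8207 CPM in the same order of libraries, highest in control. Erythroid cell-like cells held 7650, 5115 and 6696 CPM of Hamp, above the 3 to 30% cells in each library.

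The median log2 ratio to control of the signal carriers was -0.32 in HFD and -0.47 in CCl4, and that of the targets -1.89 and -1.63. For all genes tested it was 0.13 and 0.06. Among the targets, Saa1, Saa2, Saa3 and Orm2 were leading genes of a control hepatocyte cluster. The lists were chosen with earlier results known, so nothing is read from the difference between them. Of 12 carriers, 9 passed the limit, and 2 were lower in each comparison. Nfkb1, an NF-kappaB subunit, was at 92.9, 22.7 and 23.5 CPM in control, HFD and CCl4. Myd88, the adaptor of the interleukin 1 receptor, was at 17.6, 6.70 and 6.86 CPM. Jak1, a kinase bound to gp130, was at 139, 87.4 and 82.7 CPM, within 2-fold. Of 7 inhibitors tested, 3 were lower in HFD and 4 in CCl4. For the carriers and inhibitors too, the share of all genes that much lower was 5.38% in HFD and 6.82% in CCl4. Socs1 was at 20.9, 1.75 and 2.70 CPM, Ptpn2, a phosphatase, at 70.6, 22.4 and 21.4, and Tnfaip3, which restrains NF-kappaB, at 19.3, 9.03 and 8.44. Nfkbia was at 162, 85.6 and 59.3 CPM and was past 2-fold in CCl4. Of 8 other receptors and decoys, Sigirr and Il11ra1 passed the limit, and neither reached 2-fold. Il11ra1, which also pairs with gp130, was at 16.8, 17.2 and 20.9 CPM. In control Saa1 was nearly as high in B cell-like as in the 3 to 30% hepatocyte-like cells. It was higher in B cell-like cells in HFD, at 594 against 516 CPM, and in CCl4, at 184 against 167. How much of the other target counts was free RNA was not tested.

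Among named classes, the main ligands of both arms were highest in cells other than hepatocyte-like cells. Il1b was highest in granulocyte-like cells, at 2404 CPM in control, 1946 in HFD and 1332 in CCl4. Il1a was highest in Kupffer cell-like cells in control and HFD, at 314 and 122 CPM. Il6 was highest in basophil-like cells, at 2532 CPM over 94 control cells, 92.6% of which had a UMI, and at 381 CPM over 31 HFD cells. Osm, which encodes oncostatin M, was also highest there, at 1631 and 1511 CPM. In CCl4 only 14 basophil-like cells were found, under the 20 cells needed to list a class. In the 3 to 30% hepatocyte-like cells Il6 had 9, 0 and 1 UMIs. Of 10 ligands, Il1b alone passed the limit there, at 12.2, 12.8 and 3.37 CPM, and it was lower in CCl4.

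The genes most like each member were found by Pearson correlation of log2(CPM + 5) over 42 classes and libraries of at least 50 cells, among 11709 genes. The points share libraries, depth and free RNA, so the values are a description. For Steap4 they were Mt2 (0.90) and Mt1 (0.90), which encode metallothioneins, and Serpina3n (0.85). Il1r1 was most like Mt2 (0.83), Raph1 (0.82) and Tacc2 (0.81). Il1rn was closest to Ripk2 (0.77), Litaf (0.75) and Cebpb (0.72), and Il1rap to Cfhr4 (0.71), F9 (0.70) and Ppp1r3b (0.70). Il6ra was nearest to Mefv (0.74), Gpr141 (0.74) and Atp6v0d1 (0.73). Il6st came closest to Gja1 (0.92), Fam189a2 (0.91) and Pxdn (0.91), Osmr to Adamts1 (0.96), Spats2l (0.95) and Timp3 (0.95), and Lifr to Kdr (0.83), Dll4 (0.83) and Acer2 (0.83). Socs3 had Taok1 (0.86), Dock1 (0.86) and Bmpr2 (0.85), and Stat3 had Cbl (0.81), Map3k2 (0.80) and Nfkb1 (0.79).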

How the data were processed

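Single-cell libraries (10x 3' v3.1) of mouse liver were counted by the authors with Cell Ranger 7.2.0 and deposited as raw counts of UMIs per gene and barcode, 1 library per group, each a pool of 2 mice (6 in all). The genome build named in the processing notes was GRCm39, and the study's methods name mm10. Member coordinates are from GENCODE M21 and promoter windows from RefSeq, both GRCm38.

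Filters kept barcodes of 500 or more UMIs and 200 or more genes whose mitochondrial share did not exceed 30%. At its own threshold Scrublet called 3, 0 and 3 doublets, so it did not work on these libraries, and doublets were in effect not removed. Cells were clustered with scanpy 1.11.5 (2000 variable genes, 30 components, 15 neighbours, Leiden resolution 1), with the members and 60 pathway genes left out of the variable genes, into 39 clusters, of which 36 were named from 19 marker lists. The naming rule written first left 2 large hepatocyte clusters without a name and called another plasma cells. It was replaced after the clusters had been seen. A cluster took the class with 3 or more markers in its 10 leading genes, if no other class had as many. Otherwise it took the class with at least 3 raised and at least 0.5 of the list raised. Failing that, it was hepatocyte-like if its summed hepatocyte markers reached the median cluster's. In these later steps no class could have more leading markers. A cluster with none of its own leading was barred if at least 4 of the 10 were predicted genes such as Gm38070, or its UMIs were few.

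UMIs were summed per class and library and given as CPM. Levels carry exact Poisson intervals, shares Clopper-Pearson intervals and ratios exact conditional binomial intervals, all 95%, for counting error only. With 1 library per group no test was made. A gene was called at a ratio of at least 2 or at most 0.5 provided that 1 of the compared libraries reached 10 CPM. Shares were also read after thinning each cell to 1000 UMIs. Zones were the outer groups of 3 equal groups of cells ranked by pericentral minus periportal genes. The ratio intervals, the 2-fold call and the thinning were tested on simulated data, and the clustering, class naming, zones and correlations were not. Named genes were all members, the 3 genes most like each member and the main ligands. Up to 4 genes per pathway list and comparison past 2-fold in all hepatocyte-like cells were also named. Of these, Cish and Bcl3 are given only here. In all hepatocyte-like cells Cish was at 23.3 CPM in control, 9.59 in HFD and 19.4 in CCl4. Bcl3 was at 37.8 CPM in HFD and 17.7 in CCl4. Other pathway genes named (Hamp, Junb, Nfkbiz, Jak1, Sigirr, Il11ra1 and Gm38070) were chosen after their values were seen. The members and lists were chosen with earlier results of these data known. In all, 13 alternative settings were listed at the start and 1 was added after seeing the data.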

Additional observations from a re-analysis of the deposited data

Results flagged for a closer look

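Some values went the opposite way in 2 cell sets or stood above control in cells without a class name. They are given with no explanation, and none of the differences was tested.

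The 123 control, 131 HFD and 679 CCl4 cells without a class name entered no comparison of their own and were counted within all other cells. Summed over their clusters, several members stood above their control level beyond counting error. Il1rap was at 25.3 CPM in control, 86.0 in HFD and 113 in CCl4. Il6ra was at 38.4 CPM in control and 88.4 in CCl4. Lifr was at 107 CPM in control and 174 in HFD, and Socs3 at 253 and 351. Of these cells, 72 of control and 105 of HFD fell in 1 cluster with 67902 and 45294 CPM of Malat1, and 663 of CCl4 in another with 57497. In the shared cluster Lifr was at 344 CPM in control and 200 in HFD, and Socs3 at 796 and 399, both higher in control. Il1rap was higher in HFD there, at 99.8 against 58.1 CPM. The CCl4 cluster held 114 CPM of Il1rap and 93.3 of Il6ra, against 99.5 of Il6ra in the control cells of the shared cluster. A further 43 control, 18 HFD and 14 CCl4 cells formed a deeper cluster, so the sums mix clusters in different shares.

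Some ratios to control lay on the other side of 1 from those in the 3 to 30% hepatocyte-like cells. Il1rap in HFD was 1.63 times control in hepatocyte-like cells under 3% mitochondrial UMIs and 0.796 in those above. Il6ra in CCl4 was 0.477 of control in monocyte-like cells and 1.58 in hepatocyte-like cells. Lifr in HFD was 0.836 of control in the 3 to 30% hepatocyte-like cells but 1.42 in B cell-like, 1.40 in T cell-like and 1.96 in NK cell-like cells, and 1.30 in hepatocyte-like cells under 3%. Across the lobule, Stat3 was 1.23 times higher in the pericentral than the periportal group in control (1.12-1.35), and 0.826 (0.706-0.967) in CCl4.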

How the results depend on the processing

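No paired analysis was possible because each group was 1 library and no result came from a test. Of 600 values of the 60 member ratios under the settings listed at the start, 553 stayed within their counting interval, 47 moved and 0 changed direction past a call. Clustering each library on its own moved 24 of the 60, the most of any setting. The setting added after seeing the data, hepatocyte-like cells with at least 1 Malat1 UMI, moved 11 of the 60. With a fold of 1.5 in place of 2, the members of the CCl4 against control comparison were 2 higher and 7 lower in all hepatocyte-like cells, where 16.9% of genes were higher and 15.7% lower. In those with 3 to 30% mitochondrial UMIs they were 1 higher and 8 lower, against 18.1% and 14.4% of genes. Against HFD, CCl4 then had 3 higher and 1 lower, against 7.92% and 11.9% of genes. The members higher in CCl4 than in HFD in the 3 to 30% cells numbered 3 with each library clustered on its own and 2 with a limit of 5 to 30%. In CCl4, 1 member rather than 0 was at least 2-fold higher in hepatocyte-like than in all other cells at resolution 0.5, with at least 2000 UMIs per cell, with CPM taken without mitochondrial genes and the top 20 genes, and in cells with at least 1 Malat1 UMI. The cause was not tested. Over the settings listed at the start, Il1r1 in the 3 to 30% cells stayed between 13.2-fold and 17.7-fold lower in HFD and between 17.9-fold and 23.2-fold lower in CCl4. Il1rn in HFD ranged from 58.9-fold lower to 218-fold lower, the latter with each library clustered on its own. Osmr ranged from 12.2-fold to 30.3-fold lower in HFD and from 37.0-fold to 64.7-fold lower in CCl4. The first naming rule left no usable control hepatocyte class and gave no value. With 1 library per group, no spread between mice could be seen, and Osmr and Il1rn in the treated libraries rest on few UMIs.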

Other observations

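A cluster left without a class name held 72 control cells and 105 HFD cells. Its summed hepatocyte markers, at 59189.5 CPM against 52010.5 in the median cluster, passed the limit for hepatocyte-like cells. It stayed without a name because predicted genes were among its leading genes and no marker was. In the control cells Il1r1 was at 937 CPM, Steap4 at 1356, Socs3 at 796 and Gm38070, inside Il1r1, at 1949. In the HFD cells the same genes were at 38.6, 74.0, 399 and 64.4 CPM. Beside their large cluster poor in mitochondrial UMIs, the HFD hepatocyte-like cells formed 2 clusters with median mitochondrial shares of 4.61% and 3.85%, in which Il1rap was at 82.5 and 44.2 CPM and Socs3 at 110 and 71.4 CPM.

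Cells with both Lifr and Il6st UMIs made up 31.4% of control, 5.11% of HFD and 2.94% of CCl4 hepatocyte-like cells with 3 to 30% mitochondrial UMIs, against 27.2%, 3.88% and 2.47% from the product of the separate shares. These shares were not thinned, and the control cells were the deepest. Clcf1, which encodes a ligand of the same family, was highest in cholangiocyte-like cells in each library, at 128, 105 and 76.7 CPM in control, HFD and CCl4.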
